A study of Homo sapiens with 8 samples.

Results

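Non-collagen matrix proteins are the secreted glycoproteins, proteoglycans and crosslinking enzymes that build the extracellular matrix together with the collagens. A list of 49 of their genes was followed by gene symbol among the 23686 genes listed for each library, and all 49 were found. The list held 11 genes of fibronectin and elastic fibres, 13 of the basement membrane, 8 proteoglycans and leucine-rich repeat proteins, 12 matricellular and adaptor proteins and 5 lysyl oxidases. Of the 49, 43 had enough counts to be tested. ELN, MFAP5, NID1, ASPN, PRELP and COMP did not, and none of these 6 exceeded 0.13 TPM (a level per length of transcript, scaled to a fixed total in each library) in any library.

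Fibronectin and fibrillins are laid down as fibres outside the cell, laminins form the basement membrane as trimers of an alpha, a beta and a gamma chain, and small leucine-rich proteoglycans coat collagen fibrils. Matricellular proteins such as tenascin C, periostin and the thrombospondins change how cells attach rather than bearing load. Lysyl oxidases oxidise lysines of collagen and elastin so that the fibres become crosslinked, and in breast tumours stromal fibroblasts and the cancer cells themselves can make these proteins.

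RNA was sequenced from HS578T and MDA-MB-231, established human cell lines of triple-negative breast cancer, a class that has neither hormone receptors nor raised ERBB2. The groups were HS578T siGpx1, HS578T control, MDA-MB-231 siGpx1 and MDA-MB-231 control, with 2 libraries each. In the siGpx1 groups GPX1, a glutathione peroxidase that reduces hydrogen peroxide, was depleted. Titles of these samples name an siRNA whereas their genotype tag reads Gpx1-/-. Neither the type of control nor the number of siRNAs is given, and nothing says that the replicates were separate cultures, so a p-value covers no more than the spread among the sequenced samples, possibly technical alone. By its title the study is about GPX1 and the spread of such tumours. Matrix genes were compared after depletion in each line and between the lines.

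The libraries held 12905808 to 14216365 estimated counts and detected 15573 to 15805 genes. GPX1 stood at 9.52 and 9.02 TPM in HS578T siGpx1, against 232 TPM in both HS578T controls. It stood at 21.8 and 20.4 TPM in MDA-MB-231 siGpx1, against 594 and 634 TPM in MDA-MB-231 control. The depleted libraries thus kept 4.15% of the control level in HS578T cells and 3.49% in MDA-MB-231. The siGpx1 replicates of HS578T differed more from each other (mean chi-square of 3.96 per gene) than those of the other groups (1.35 to 1.94). Of the leukocyte markers, CD3E was at 0 in all 8 libraries and PTPRC did not exceed 0.19 TPM. CD68, also expressed outside leukocytes, had 61.27 and 66.57 TPM in HS578T siGpx1, against 93.74 and 91.58 TPM in HS578T control, and lay between 158.60 and 165.83 TPM in MDA-MB-231. CD14 lay between 7.52 and 9.33 TPM in HS578T. In MDA-MB-231 CD14 had 12.98 and 12.88 TPM in siGpx1 libraries, against 6.23 and 6.42 TPM in controls. In HS578T the summed TPM of 5 fibroblast markers was 764 to 853 in siGpx1 libraries and 1460 to 1510 in controls. Within that list THY1 and ACTA2 fell, PDGFRA rose (170.45 and 190.46 TPM in siGpx1 libraries, against 90.06 and 82.43 TPM in controls) and FAP and PDGFRB did not pass. THY1 was at 0 in all 4 MDA-MB-231 libraries, where the fibroblast sum was 6.92 to 7.6 in siGpx1 libraries and 7.11 to 8.0 in controls. The sum of 5 mesenchymal markers, mostly VIM, was 7220 to 7410 in HS578T siGpx1 and 6270 to 6330 in HS578T control. In MDA-MB-231 that sum was 2860 to 2890 in siGpx1 libraries and 2220 to 2290 in controls. Of these markers VIM and CDH2 rose and ZEB1 fell in both lines, SNAI2 rose in HS578T alone, and TWIST1 passed in neither line. The sum of 6 epithelial markers was 934 to 1030 in HS578T siGpx1 and 347 to 350 in HS578T control, mostly KRT18, and 2750 to 2820 in MDA-MB-231 siGpx1 and 1740 to 1760 in MDA-MB-231 control. The sum of 4 endothelial markers did not exceed 5.87 in any library. The part of these markers in the matrix results was not tested. The labels call both lines epithelial. MDA-MB-231 held the keratins KRT8 and KRT19 at 440.20 TPM or more and EPCAM at 31.77 TPM or more in each library, with CDH1, the epithelial cadherin, at 1.11 TPM or less. HS578T held KRT18 and KRT8, with CDH1, EPCAM and KRT19 at 0.51 TPM or less.

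Differences between the control lines were large for many members, 31 being over 2-fold higher in HS578T and 7 over 2-fold lower. No share of all genes was taken at that size. Between the controls, HS578T was higher than MDA-MB-231 for 33 members and lower for 8, and 2 (LAMA1 and ECM1) did not pass. That is 95.3% of the tested members, where 81.6% of all tested genes were called, 38.6% of all genes being higher and 43.0% lower in HS578T. The TPM ranges of the controls were apart for all 43 tested members, as for 91.1% of all genes. The median log2 difference was 3.18 over the members and -0.05 over all genes. The members together took 2.59 and 2.56% of all TPM in HS578T controls and 0.291 and 0.289% in MDA-MB-231 controls. The largest adjusted p among the 41 calls was 0.0435 by the quasi-likelihood test of edgeR, Benjamini-Hochberg adjusted, and only the calls of AGRN and MFAP4 were lost under an alternative setting.

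**Figure D1:**
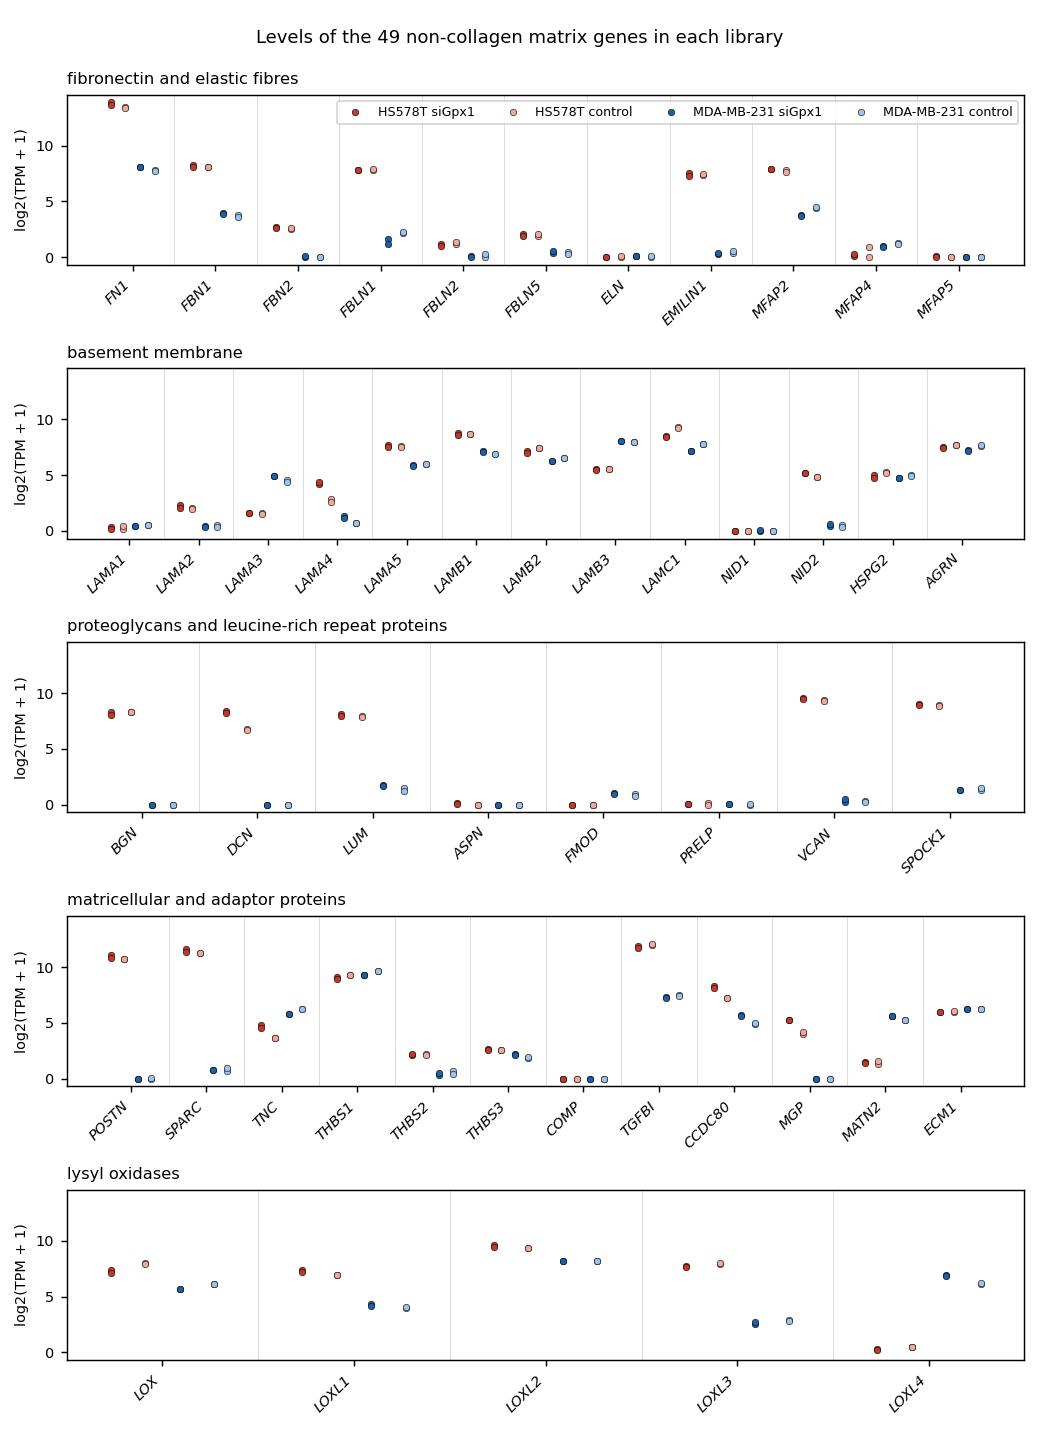
Level of each of the 49 genes in every library, as log2(TPM + 1), in panels by role, with siGpx1 and control libraries of HS578T in red and of MDA-MB-231 in blue. Fibronectin, SPARC, POSTN, VCAN, BGN and DCN stand high in the HS578T libraries, and BGN and DCN are at 0 in the 4 MDA-MB-231 libraries, whereas LAMA3, LAMB3, MATN2, TNC and LOXL4 are higher in MDA-MB-231.

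Most fibre genes and most proteoglycans and leucine-rich repeat proteins were higher in HS578T controls, 8 of 9 and 5 of 6 tested, with MFAP4 and FMOD lower. FN1, which encodes fibronectin, had 11038.57 and 10720.45 TPM in HS578T controls, against 219.98 and 204.74 TPM in MDA-MB-231 controls, a 56.2-fold difference. It was the gene with the highest TPM of all genes in both HS578T groups. SPARC, a collagen-binding matricellular protein, had 2457.85 and 2494.19 TPM in HS578T controls, against 0.64 and 0.91 TPM in MDA-MB-231 controls. POSTN, which encodes periostin, had 58821 counts over the HS578T controls and 1 over the MDA-MB-231 controls, a ratio of 69100 with a 95% counting interval of 12400 to 2730000. VCAN, the large proteoglycan versican, was 4670-fold higher in HS578T controls, a ratio that rests on 12 and 5 counts in the MDA-MB-231 controls (95% counting interval 2920 to 8020). SPOCK1, the proteoglycan testican-1, was 312-fold higher. EMILIN1, an elastic fibre glycoprotein, was 497-fold higher. EMILIN1 had 166.38 and 174.04 TPM in HS578T controls, against 0.31 and 0.44 TPM in MDA-MB-231 controls. LUM, the proteoglycan lumican, was 160-fold higher and FBN2, a fibrillin, 166-fold, which rests on 4 MDA-MB-231 control counts (64.5 to 611). SPOCK1 had 495.41 and 473.10 TPM in HS578T controls, against 1.53 and 1.88 TPM in MDA-MB-231 controls.

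Biglycan, decorin and matrix Gla protein, which inhibits calcification, had 0 counts in every MDA-MB-231 library. Against a floor of 3 counts over the MDA-MB-231 controls, BGN was at least 3220-fold higher in HS578T controls, DCN at least 950-fold and MGP at least 92.8-fold. Counting intervals and floors cover counting error alone. For these genes, and for POSTN, a response to depletion could not be measured in MDA-MB-231.

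The members higher in MDA-MB-231 were fewer. LOXL4, a lysyl oxidase, had 0.40 and 0.42 TPM in HS578T controls, against 68.59 and 71.77 TPM in MDA-MB-231 controls, which was 157-fold higher in MDA-MB-231. MATN2, an adaptor protein of filamentous networks, was 19.4-fold higher in MDA-MB-231, with 1.49 and 2.06 TPM in HS578T controls, against 37.35 and 37.79 TPM in MDA-MB-231 controls. The laminin chains LAMA3 and LAMB3, which belong to the epithelial laminin 332, were 9.32-fold and 4.84-fold higher there, and tenascin C (TNC) 5.9-fold. FMOD, the collagen-binding fibromodulin, had 0 counts over the HS578T controls and 30 over the MDA-MB-231 controls, at least 8.51-fold higher in MDA-MB-231. THBS1, thrombospondin 1, differed by 1.19-fold and was the most abundant member of the MDA-MB-231 controls at 798.40 and 791.83 TPM.

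After depletion of GPX1 named genes moved in both directions, and the share of members that moved was close to that of all genes. Loss of GPX1 and other effects of the treatment cannot be told apart, since neither control type nor number of siRNAs is given. In HS578T 16 members rose, 8 fell and 19 did not pass. That is 55.8% called, where 50.7% of all tested genes were called, and over all genes 28.6% rose and 22.1% fell. In MDA-MB-231 8 members rose, 11 fell and 24 did not pass, 44.2% called, where 42.6% of all tested genes were called, 20.7% higher and 21.9% lower. The direction split of all genes moved with the settings. In HS578T 4074 rose and 3149 fell as fitted, and 3363 rose and 3457 fell with a stricter filter on low counts. In MDA-MB-231 2950 rose and 3116 fell as fitted, 3440 rose and 2757 fell with DESeq2 size factors, and 3652 rose and 2544 fell with the stricter filter. The TPM ranges of siGpx1 and control libraries did not overlap for 28 of the 43 members in either line, or 65.1%, where 71.0% of all genes did not overlap in HS578T cells and 70.7% in MDA-MB-231. The median log2 change of the members was 0.06 in HS578T cells and -0.02 in MDA-MB-231, beside 0.04 and 0 over all genes. The largest adjusted p of a call was 0.0212 in HS578T cells and 0.0282 in MDA-MB-231 by the quasi-likelihood test of edgeR, Benjamini-Hochberg adjusted. In bulk RNA, fewer cells of a kind and less RNA per cell cannot be told apart.

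Both lines shared 4 rises (FN1, FBN1, LAMA4 and CCDC80) and 7 falls (LAMB2, LAMC1, HSPG2, AGRN, THBS1, TGFBI and LOX). Over all tested genes, 14.9% rose in both lines and 14.3% fell in both. MFAP2 and TNC rose in HS578T and fell in MDA-MB-231, as 1.54% of all genes moved in opposite directions. The called changes of over 2-fold in HS578T were those of LAMA4, DCN, MGP, TNC and CCDC80, all higher. In MDA-MB-231 they were those of LAMA4, higher, and FBLN1, lower. No share of all genes was taken at that size, so these members are named by size alone.

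**Figure D2:**
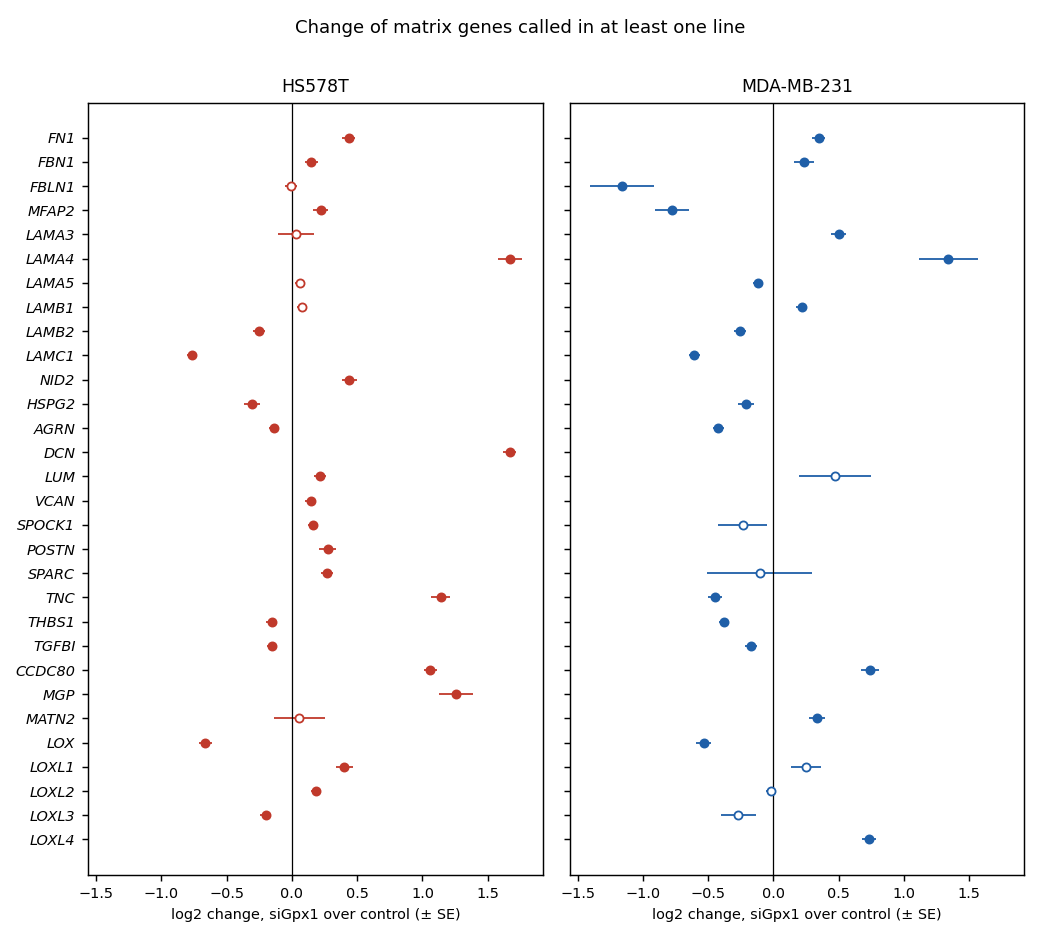
Log2 change after depletion (siGpx1 over control) ± SE for the 30 members called in at least one line, with HS578T on the left and MDA-MB-231 on the right. Filled points passed the test and open points did not, and a point is left out where neither group of the line reached 1 CPM, which leaves 29 points in HS578T cells and 25 in MDA-MB-231. LAMC1 and LOX lie left of 0 in both lines, and LAMA4 and CCDC80 right of 0 in both.

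Of 9 tested genes of fibronectin and elastic fibres, 3 rose in HS578T, and 2 rose and 2 fell in MDA-MB-231, or 33.3% called in HS578T cells with 44.4% in MDA-MB-231, beside 50.7% and 42.6% of all genes. Fibronectin rose in both lines. FN1 had 15068.30 and 13173.60 TPM in HS578T siGpx1, against 11038.57 and 10720.45 TPM in HS578T control. It had 271.41 and 268.08 TPM in MDA-MB-231 siGpx1, against 219.98 and 204.74 TPM in MDA-MB-231 control. The groups did not overlap in either line. Its log2 change was 0.43 ± 0.05 (SE) in HS578T cells and 0.35 ± 0.05 in MDA-MB-231, with adjusted p of 1.69e-06 and 4.35e-05 by the quasi-likelihood test of edgeR, Benjamini-Hochberg adjusted. FN1 was the largest single part of the members' summed TPM in HS578T, which was 31121.8 and 27413.2 in siGpx1 libraries and 25943.0 and 25607.9 in controls. In MDA-MB-231 the sum was 2698.68 and 2665.36 in siGpx1 libraries and 2907.76 and 2888.6 in controls.

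MFAP2, a small glycoprotein of fibrillin microfibrils, moved in opposite directions. It had 246.07 and 236.56 TPM in HS578T siGpx1, against 225.56 and 204.04 TPM in HS578T control. It had 12.95 and 12.06 TPM in MDA-MB-231 siGpx1, against 20.61 and 22.03 TPM in MDA-MB-231 control. The groups did not overlap in either line, although the gap in HS578T was narrow. On the log2 scale the change was 0.22 ± 0.06 in HS578T cells and -0.78 ± 0.13 in MDA-MB-231, and the difference between the lines was 0.997 ± 0.14 (adjusted p = 2.17e-04 by the quasi-likelihood test of edgeR, Benjamini-Hochberg adjusted). The rise in HS578T did not pass with DESeq2, with the 4 HS578T libraries alone, with limma on TPM or without HS578T control replicate 2 (highest adjusted p = 0.0884 over these).

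The fibrillin FBN1 rose by a log2 change of 0.15 ± 0.05 in HS578T, where its groups overlapped, and by 0.24 ± 0.08 in MDA-MB-231. The HS578T call was kept in 5 of 16 alternatives and lost without HS578T control replicate 1, control replicate 2, siGpx1 replicate 1 or any single MDA-MB-231 library (highest adjusted p 0.394, edgeR and limma). The MDA-MB-231 call was lost without either MDA-MB-231 control replicate 2 or MDA-MB-231 siGpx1 replicate 1, with adjusted p up to 0.0858 over the edgeR and limma alternatives. Fibulin 1 (FBLN1), which binds fibronectin and elastin, had 229.12 and 223.82 TPM in HS578T siGpx1, against 225.76 and 244.22 TPM in HS578T control, and did not pass. In MDA-MB-231 it had 2.03 and 1.34 TPM in siGpx1 libraries, against 3.55 and 3.65 TPM in controls, a log2 change of -1.16 ± 0.24 that rests on 16 to 53 counts a library. FBN2, FBLN2, FBLN5, EMILIN1 and MFAP4 passed in neither line. EMILIN1 had 184.38 and 151.93 TPM in HS578T siGpx1, against 166.38 and 174.04 TPM in HS578T control, with the depleted libraries on either side of the controls. The other 4 were low, FBLN2 never above 1.59 TPM and MFAP4 never above 1.35 TPM in any library.

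Of 12 tested basement membrane members, 2 rose and 4 fell in HS578T, where 28.6% of all genes rose and 22.1% fell. In MDA-MB-231 3 rose and 5 fell, where 20.7% of all genes rose and 21.9% fell. The median log2 change was 0.01 in HS578T cells, with -0.12 in MDA-MB-231. LAMC1 encodes gamma 1, the gamma chain of most laminin trimers. It had 367.31 and 334.06 TPM in HS578T siGpx1, against 624.14 and 611.35 TPM in HS578T control. It had 146.18 and 145.67 TPM in MDA-MB-231 siGpx1, against 224.30 and 217.36 TPM in MDA-MB-231 control. Each depleted library lay below both controls of its line. The log2 change was -0.76 ± 0.04 in HS578T cells and -0.61 ± 0.04 in MDA-MB-231, with adjusted p of 1.75e-10 and 6.45e-09 by the quasi-likelihood test of edgeR, Benjamini-Hochberg adjusted.

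LAMA4, the alpha 4 chain known from vascular and mesenchymal basement membranes, rose. It had 17.66 and 19.59 TPM in HS578T siGpx1, against 6.33 and 4.94 TPM in HS578T control. In MDA-MB-231 it had 1.53 and 1.21 TPM in siGpx1 libraries, against 0.63 and 0.65 TPM in controls. The groups were apart in both lines, but the MDA-MB-231 values rest on 18 to 63 counts a library. Its log2 change was 1.67 ± 0.09 in HS578T cells and 1.34 ± 0.23 in MDA-MB-231, with adjusted p of 5.08e-10 and 1.74e-04 by the quasi-likelihood test of edgeR, Benjamini-Hochberg adjusted.

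LAMA4 made up 8.5 ± 0.99% of the summed TPM of the 5 laminin alpha chains in HS578T siGpx1 and 2.75 ± 0.38% in HS578T control (SD, n = 2 each). LAMA5, the most abundant alpha chain of both lines, made up 88.8 ± 0.76% in HS578T siGpx1 and 94.7 ± 0.32% in HS578T control. In MDA-MB-231 LAMA3 made up 33.2 ± 0.61% in siGpx1 libraries and 24.7 ± 1.0% in controls, and LAMA4 1.52 ± 0.23% in siGpx1 libraries and 0.753 ± 0.043% in controls. LAMA4 had 18 and 28 counts in the MDA-MB-231 controls, so the SD of its share there understates the counting error. LAMA5 made up 64.5 ± 0.28% in MDA-MB-231 siGpx1 and 73.6 ± 1.2% in MDA-MB-231 control. A share of one chain falls when another rises, so these values are not independent of each other.

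LAMA3 itself had 29.74 and 29.87 TPM in MDA-MB-231 siGpx1, against 22.16 and 19.87 TPM in MDA-MB-231 control, a log2 change of 0.50 ± 0.06. In HS578T it stayed near 2 TPM in all 4 libraries, between 1.86 and 2.06. LAMB1, a beta chain, had 140.72 and 138.57 TPM in MDA-MB-231 siGpx1, against 121.55 and 117.55 TPM in MDA-MB-231 control, and rose there (0.22 ± 0.04). In HS578T, where LAMB1 was the most abundant laminin chain after depletion, it had 434.83 and 390.89 TPM in siGpx1 libraries, against 401.27 and 410.03 TPM in controls, and these overlapped. LAMB2 had 146.30 and 128.75 TPM in HS578T siGpx1, against 169.39 and 170.53 TPM in HS578T control. This other beta chain fell in both lines (-0.25 ± 0.05 in HS578T cells and -0.26 ± 0.05 in MDA-MB-231). LAMB1 made up 69.3 ± 0.21% of the beta chain TPM in HS578T siGpx1 and 65.2 ± 0.28% in HS578T control.

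The basement membrane proteoglycans AGRN and HSPG2 fell in both lines. AGRN, agrin, had 151.43 and 146.89 TPM in MDA-MB-231 siGpx1, against 191.95 and 205.49 TPM in MDA-MB-231 control. In HS578T it had 185.34 and 177.83 TPM in siGpx1 libraries, against 208.30 and 206.45 TPM in controls. The groups did not overlap, and its log2 change was -0.14 ± 0.04 in HS578T cells and -0.42 ± 0.04 in MDA-MB-231. HSPG2, perlecan, had a log2 change of -0.30 ± 0.06 in HS578T cells and -0.21 ± 0.06 in MDA-MB-231, where the call was lost without any single MDA-MB-231 library (highest adjusted p over all alternatives 0.268, edgeR and limma). NID2, nidogen 2, which links laminin to collagen IV, had 36.78 and 35.70 TPM in HS578T siGpx1, against 28.22 and 27.24 TPM in HS578T control, a rise of 0.44 ± 0.06 that was not called with limma on log2(TPM + 0.1). LAMA5, which had 58.79 and 57.17 TPM in MDA-MB-231 siGpx1, against 63.45 and 61.70 TPM in MDA-MB-231 control, had a log2 change of -0.12 ± 0.04 there. That call was lost without any single MDA-MB-231 library and with DESeq2 (highest adjusted p over the edgeR, DESeq2 and limma alternatives 0.530). ADRM1, whose exons overlap LAMA5 on the opposite strand, had a mean of 321 TPM in MDA-MB-231 siGpx1 and 346 TPM in MDA-MB-231 control. Its log2 change there was -0.12 and did not pass. LDLRAD2, opposite HSPG2, had a log2 change of -0.28 in HS578T. DLD, opposite LAMB1, had -0.21 in MDA-MB-231, where LAMB1 rose. The part of these overlaps was not tested. LAMA1, LAMA2 and LAMB3 passed in neither line. LAMB3, the most abundant basement membrane member of MDA-MB-231, had 267.32 and 273.14 TPM in MDA-MB-231 siGpx1, against 253.26 and 257.79 TPM in MDA-MB-231 control. LAMA1 never exceeded 0.49 TPM, and LAMA2 lay between 3.01 and 4.11 TPM in HS578T.

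**Figure D3:**
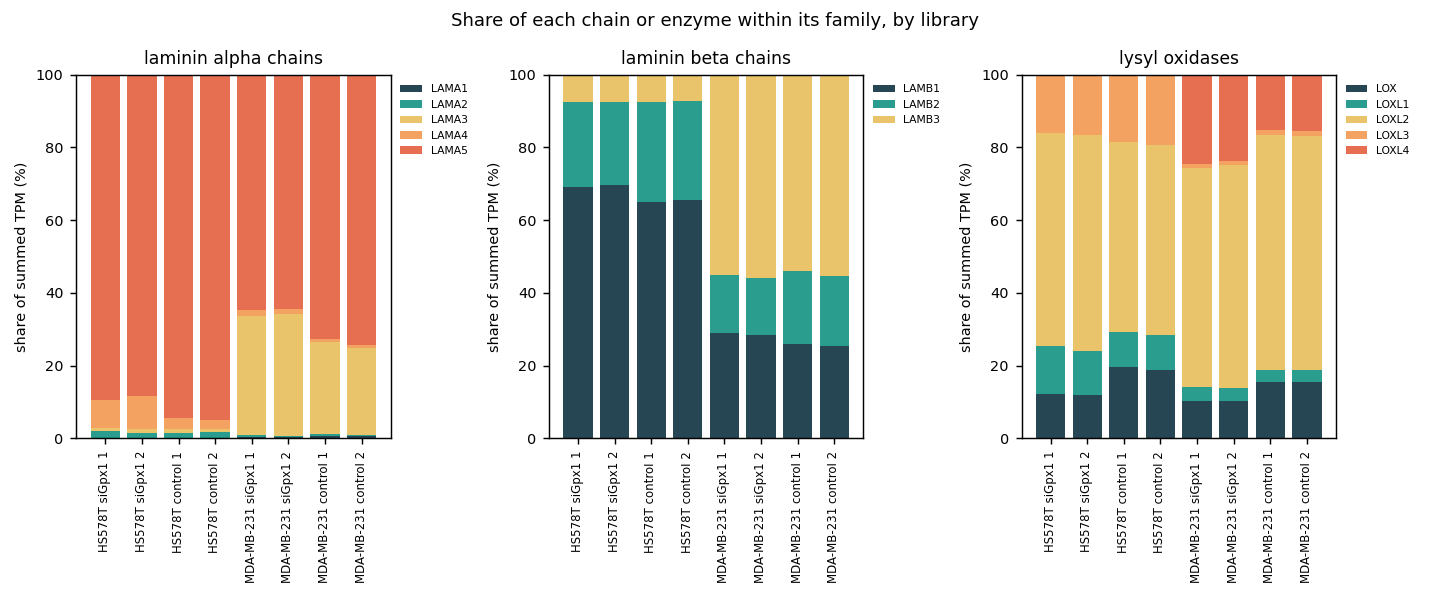
Share of each chain or enzyme in the summed TPM of its family, in percent, for the 8 libraries, with laminin alpha chains, laminin beta chains and lysyl oxidases in separate panels. The LAMA4 part is wider in HS578T siGpx1 than in HS578T control, the LAMA3 part is wider in MDA-MB-231 siGpx1 than in MDA-MB-231 control, and the LOX part is narrower after depletion in both lines.

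The sequence around a match to GPX1 is printed for LAMC1, the member with the largest called fall in HS578T. HSPG2, which fell less, and LOXL4, which rose in MDA-MB-231, are printed beside it. The deposited changes were earlier found to go with GGGCATC and GGCATCA, a pair of 7-base sequences that overlap in all but their outer bases, in the 3′ UTR. GGGCATCA, which joins them, occurs in the coding sequence of GPX1. The motifs were searched on the transcript strand alone, in GENCODE 29 transcripts on GRCh38, a later build than the hg19 that the submitters' processing notes name. Each stretch runs 5′ to 3′ with the match in capitals.
GPX1: gcaaccagtttGGGCATCAggtgcgccggg
LAMC1: ctgagcacttaGGGCATCAggaacagtgct
HSPG2: ctacctgagacGGGCATCgcaggagtctc
LOXL4: gcacagacctcGGGCATCcccttattgcc
The GPX1 stretch lies at chr3:49358017-49358046 on the minus strand. The others lie in 3′ UTRs, LAMC1 at chr1:183144779-183144808 on the plus strand, HSPG2 at chr1:21822882-21822910 on the minus strand and LOXL4 at chr10:98248288-98248316 on the minus strand.

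Either sequence was found in 7 of the 43 tested members (16.3%) and in 13.6% of the 13073 tested genes with a searched 3′ UTR. The 7 were LAMC1, HSPG2, TGFBI, LUM, LOXL1, LOXL4 and MFAP4. Of the 1775 genes with either sequence, the share called lower was 43.8% (HS578T) or 44.1% (MDA-MB-231), and the share called higher 17.3% or 13.6%. Of the 11298 without, the share called lower was 19.7% (HS578T) or 19.4% (MDA-MB-231), and the share called higher 32% or 23.2%. The pair was taken from these same changes, so the shares are no independent support. Genes with either sequence also had longer 3′ UTRs, with a median of 2754 bases, against 1042 bases without. The part of that length was not tested. Among the 7 members, in HS578T LAMC1, HSPG2 and TGFBI fell and LUM and LOXL1 rose, and in MDA-MB-231 LAMC1, HSPG2 and TGFBI fell and LOXL4 rose. LOX, which fell in both lines, held neither sequence. A further pair, ACTTCGA and TACTTCG, was searched and was found in 325 of the searched genes, with a median 3′ UTR of 3049 bases. Of these, the share called lower was 12.3% (HS578T) or 13.8% (MDA-MB-231), and the share called higher 47.1% or 42.2%. CCDC80, which rose in both lines, was the only tested member that held either sequence of this further pair. A match is a description of letters, and its part in any change was not tested.

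Among the proteoglycans and leucine-rich repeat proteins, all calls were rises in HS578T. Of 6 tested members, 4 rose and 0 fell there, and 0 passed in MDA-MB-231, where these genes were low, by the edgeR test. At an unadjusted p under 0.05 the falls in HS578T and the calls in MDA-MB-231 also numbered 0. DESeq2 likewise gave 0 over the 5 members for which it gave a value. BGN and DCN, with 0 counts in every MDA-MB-231 library, could not be called there, nor could FMOD in HS578T. VCAN had 5 to 12 counts a library in MDA-MB-231. The 0 in MDA-MB-231 is therefore no measure of a lack of response. Over all genes 28.6% rose and 22.1% fell in HS578T, and 42.6% were called in MDA-MB-231. BGN was called lower in HS578T without HS578T siGpx1 replicate 1, and LUM was called higher in MDA-MB-231 with limma on TPM. DCN, decorin, which binds collagen fibrils, had 331.85 and 306.81 TPM in HS578T siGpx1, against 106.72 and 102.15 TPM in HS578T control. The groups lay far apart. On the log2 scale the change was 1.67 ± 0.05, with adjusted p = 7.15e-12 by the quasi-likelihood test of edgeR, Benjamini-Hochberg adjusted. LUM rose by 0.21 ± 0.05, SPOCK1 by 0.16 ± 0.04 and VCAN by 0.14 ± 0.04, and each of these calls was lost with limma on log2(TPM + 1). The SPOCK1 call was also lost without HS578T control replicate 2, and the VCAN call without HS578T control replicate 2, siGpx1 replicate 1 or any single MDA-MB-231 library (highest adjusted p over the edgeR, DESeq2 and limma alternatives 0.382 for SPOCK1 and 0.703 for VCAN). BGN, close to decorin in structure, had 318.19 and 266.13 TPM in HS578T siGpx1, against 314.75 and 315.69 TPM in HS578T control, and did not pass. VCAN, the most abundant of the class, had 746.77 and 700.31 TPM in HS578T siGpx1, against 660.89 and 632.52 TPM in HS578T control. LUM had 2.33 and 2.19 TPM in MDA-MB-231 siGpx1, against 1.85 and 1.40 TPM in MDA-MB-231 control. FMOD had 0 TPM in every HS578T library.

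**Figure D4:**
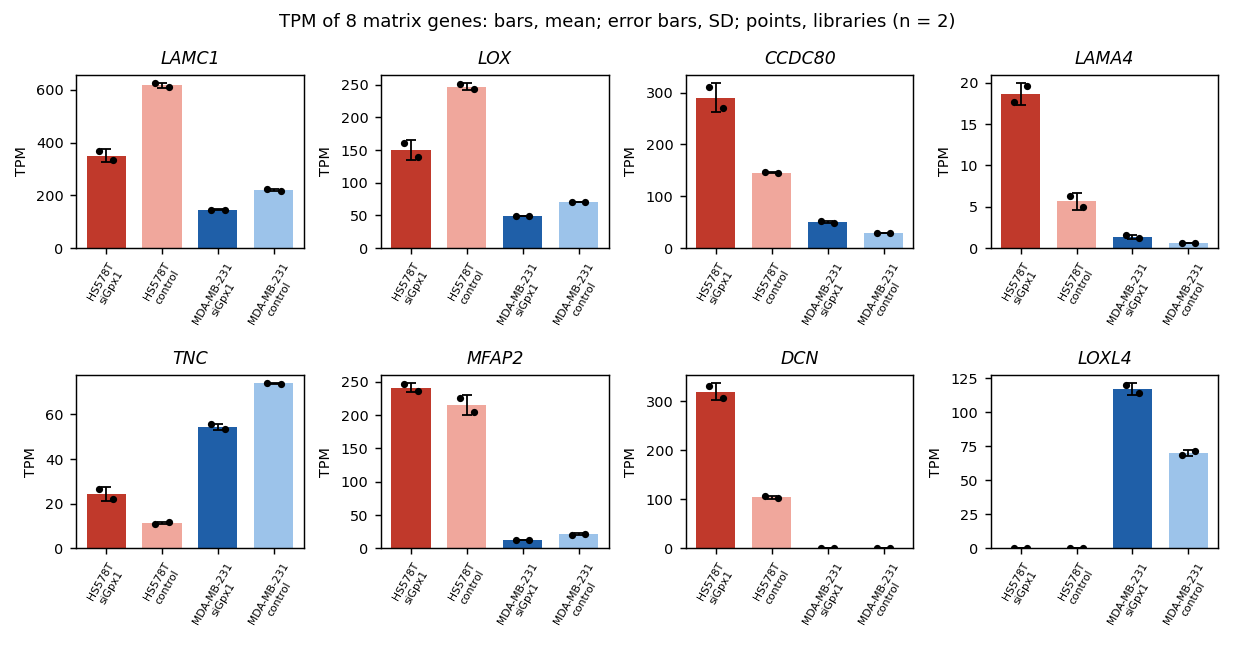
TPM of 8 members in the 4 groups, with bars for the mean, error bars for the SD and points for the 2 libraries. LAMC1 and LOX are lower and CCDC80 and LAMA4 higher in siGpx1 than in control in both lines, TNC and MFAP2 are higher in HS578T siGpx1 and lower in MDA-MB-231 siGpx1, and DCN is at 0 in MDA-MB-231.

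Of 11 tested matricellular and adaptor proteins, 5 rose and 2 fell in HS578T, where 28.6% of all genes rose and 22.1% fell. In MDA-MB-231 2 rose and 3 fell, where 20.7% of all genes rose and 21.9% fell. TNC, tenascin C, an adhesion-modulating glycoprotein, had 26.64 and 22.04 TPM in HS578T siGpx1, against 11.11 and 11.76 TPM in HS578T control. It had 55.49 and 53.47 TPM in MDA-MB-231 siGpx1, against 73.99 and 73.78 TPM in MDA-MB-231 control. The groups were apart in both lines and the order was opposite. The log2 change was 1.14 ± 0.07 in HS578T cells and -0.45 ± 0.05 in MDA-MB-231, and the difference between the lines was 1.59 ± 0.09 (adjusted p = 2.77e-08 by the quasi-likelihood test of edgeR, Benjamini-Hochberg adjusted).

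CCDC80, a secreted matrix-associated protein, rose in both lines. It had 310.69 and 270.20 TPM in HS578T siGpx1, against 146.09 and 145.17 TPM in HS578T control. It had 51.62 and 48.74 TPM in MDA-MB-231 siGpx1, against 29.52 and 29.80 TPM in MDA-MB-231 control. No depleted library overlapped a control of its line. Its log2 change was 1.06 ± 0.05 in HS578T cells and 0.74 ± 0.07 in MDA-MB-231, with adjusted p of 8.42e-11 and 2.47e-07 by the quasi-likelihood test of edgeR, Benjamini-Hochberg adjusted.

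MGP had 38.18 and 36.25 TPM in HS578T siGpx1, against 14.87 and 17.48 TPM in HS578T control, a rise of 1.26 ± 0.13 on the log2 scale. Its groups lay well apart. POSTN had 2205.19 and 1795.02 TPM in HS578T siGpx1, against 1723.61 and 1703.26 TPM in HS578T control, and SPARC had 3065.29 and 2682.73 TPM in HS578T siGpx1, against 2457.85 and 2494.19 TPM in HS578T control. Both rose in HS578T, by 0.27 ± 0.06 and 0.27 ± 0.05. Both calls were lost with limma on log2(TPM + 1), and the POSTN call with DESeq2. MATN2 had 46.73 and 48.30 TPM in MDA-MB-231 siGpx1, against 37.35 and 37.79 TPM in MDA-MB-231 control, and rose by 0.33 ± 0.06, a call that was lost with limma on log2(TPM + 0.1).

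THBS1 had 621.55 and 606.94 TPM in MDA-MB-231 siGpx1, against 798.40 and 791.83 TPM in MDA-MB-231 control. In HS578T it had 555.67 and 497.27 TPM in siGpx1 libraries, against 609.94 and 606.97 TPM in controls. The groups lay apart in both lines, with a log2 change of -0.16 ± 0.04 in HS578T cells and -0.38 ± 0.04 in MDA-MB-231. TGFBI, an integrin-binding protein induced by transforming growth factor beta, had 3803.87 and 3397.38 TPM in HS578T siGpx1, against 4132.45 and 4177.05 TPM in HS578T control. Its log2 change was -0.15 ± 0.04 in HS578T cells and -0.17 ± 0.05 in MDA-MB-231, where the call was lost without any single MDA-MB-231 library (highest adjusted p = 0.248 by edgeR). THBS2, THBS3 and ECM1 passed in neither line. ECM1, an adaptor that binds perlecan, lay between 60.35 and 66.19 TPM in the 4 HS578T libraries and between 72.73 and 74.83 TPM in the 4 MDA-MB-231 libraries.

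Of the lysyl oxidases, LOX fell in both lines. It had 161.23 and 139.54 TPM in HS578T siGpx1, against 251.20 and 242.89 TPM in HS578T control. It had 49.26 and 49.20 TPM in MDA-MB-231 siGpx1, against 70.51 and 71.00 TPM in MDA-MB-231 control. Depleted libraries lay below the controls in both lines. On the log2 scale the change was -0.66 ± 0.05 in HS578T cells and -0.53 ± 0.06 in MDA-MB-231, with adjusted p of 1.74e-08 and 2.14e-06 by the quasi-likelihood test of edgeR, Benjamini-Hochberg adjusted. SRFBP1, whose exons overlap LOX on the opposite strand, rose by 0.47 in HS578T cells and 0.30 in MDA-MB-231. Whether counting used strand is not given in the sources used here, and 13 of the 49 members have exons that overlap another listed gene.

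LOXL4 rose in MDA-MB-231, with 120.23 and 114.07 TPM in siGpx1 libraries, against 68.59 and 71.77 TPM in controls. Those groups did not overlap. The log2 change was 0.73 ± 0.05 (adjusted p = 1.62e-08 by the quasi-likelihood test of edgeR, Benjamini-Hochberg adjusted), whereas HS578T held 3 to 8 LOXL4 counts a library. LOXL1, which acts in elastic fibre assembly, had 170.74 and 143.94 TPM in HS578T siGpx1, against 124.83 and 121.94 TPM in HS578T control, a rise of 0.40 ± 0.07. LOXL1-AS1, on its opposite strand, rose by 0.52 there, so reads of this pair cannot be told apart without strand. LOXL2, the most abundant lysyl oxidase of both lines, had 766.85 and 705.24 TPM in HS578T siGpx1, against 669.50 and 673.15 TPM in HS578T control, and rose (0.19 ± 0.04). In MDA-MB-231 it had 291.68 and 293.94 TPM in siGpx1 libraries, against 290.65 and 298.27 TPM in controls, and these overlapped. LOXL3 had 211.52 and 197.27 TPM in HS578T siGpx1, against 237.19 and 249.84 TPM in HS578T control, and fell (-0.20 ± 0.04). LOX made up 12.3 and 11.8% of the family's TPM in HS578T siGpx1 and 19.6 and 18.9% in HS578T control, and 10.2 ± 0.071% in MDA-MB-231 siGpx1 and 15.5 ± 0.21% in MDA-MB-231 control. LOXL4 made up 24.3 ± 0.71% in MDA-MB-231 siGpx1 and 15.4 ± 0.21% in MDA-MB-231 control.

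The response itself differed between the lines for 10 members, 8 with a higher and 2 with a lower change in HS578T than in MDA-MB-231. That is 23.3% of the tested members, where 17.0% of all tested genes were called, 10.7% higher and 6.32% lower. That split of all genes depends on scaling: 1528 were higher and 900 lower as fitted, and 1000 higher and 1251 lower with DESeq2 size factors. The 8 were TNC, FBLN1, MFAP2, CCDC80, AGRN, THBS1, LOXL2 and LAMA5, and the 2 were LOXL4 and LAMA3. Only TNC and MFAP2 kept this call under every alternative tried. For BGN, DCN and MGP, with 0 counts in MDA-MB-231, and FMOD, with 0 in HS578T, the edgeR fit could not measure this difference. Nor could it for POSTN, with 1 count over the MDA-MB-231 controls.

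Outside the members, 3 lists of related genes moved in both directions as well. Of 36 tested matrix glycoproteins that are no members, 13 rose and 5 fell in HS578T, and 7 rose and 5 fell in MDA-MB-231. Over all genes 28.6% rose and 22.1% fell in HS578T, while 20.7% rose and 21.9% fell in MDA-MB-231, and the proteoglycans and enzymes that follow are set against the same shares. NTN4, the laminin-related netrin 4, had a log2 change of 0.75 ± 0.04 in HS578T cells and 0.90 ± 0.07 in MDA-MB-231, and LTBP1, which tethers latent transforming growth factor beta, of 0.45 ± 0.04 and 0.39 ± 0.06. LTBP3, a relative of LTBP1, fell (-0.89 ± 0.04 in HS578T cells and -0.30 ± 0.06 in MDA-MB-231). NOV, a matricellular protein, rose in HS578T (0.39 ± 0.07) and fell in MDA-MB-231 (-0.65 ± 0.09). CTGF, another of that family, fell in both (-0.49 ± 0.09 in HS578T cells and -0.78 ± 0.10 in MDA-MB-231).

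Of 13 other proteoglycans tested, 6 rose and 2 fell in HS578T, and 4 rose and 3 fell in MDA-MB-231. GPC6, a glypican, had 27.26 and 23.81 TPM in HS578T siGpx1, against 8.01 and 7.94 TPM in HS578T control, a log2 change of 1.73 ± 0.08, and 0.48 ± 0.11 in MDA-MB-231. SDC4, a syndecan of adhesion sites, rose in HS578T (0.87 ± 0.04) and did not pass in MDA-MB-231 (0.06 ± 0.04). Of 25 tested enzymes that assemble or modify matrix, 10 rose and 5 fell in HS578T, and 5 rose and 5 fell in MDA-MB-231. FAM20B, a xylose kinase needed to build glycosaminoglycan chains, had 16.10 and 15.82 TPM in HS578T siGpx1, against 60.01 and 57.46 TPM in HS578T control. It had 28.26 and 26.63 TPM in MDA-MB-231 siGpx1, against 67.08 and 66.56 TPM in MDA-MB-231 control. Its groups lay apart in both lines, with log2 changes of -1.83 ± 0.05 and -1.29 ± 0.05. PLOD2, a collagen lysyl hydroxylase, rose in HS578T (0.85 ± 0.04), TGM2, a crosslinking transglutaminase, rose in both (0.51 ± 0.05 and 0.96 ± 0.04), and HAS2, which makes hyaluronan, fell in both (-0.60 ± 0.08 and -1.37 ± 0.14).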

How the data were processed

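Values were read from 1 gene table per library. The expected counts, deposited by the authors, are RSEM estimates of reads per gene (RSEM 1.2.12, hg19, per the submitters' processing notes). The deposited TPM values are, per the file headers, those estimates per effective length scaled to a fixed total. The sources used here give neither aligner nor strand setting. Groups came from the titles. Expected counts (94.7 to 94.9% of detected values whole) were rounded, filtered by edgeR's filterByExpr (14249 genes kept), scaled by TMM and fitted with a mean per group over all 8 libraries (4 residual degrees of freedom). The quasi-likelihood test of edgeR gave each contrast, and a gene was called when its p, adjusted by Benjamini-Hochberg over all tested genes, was under 0.05. An SE is the size of the log2 change divided by the root of F, which understates the error of large changes. The pipeline was tested on simulated counts, where the share of false calls came out above the nominal threshold and small differences between the lines were mostly missed. Same-numbered replicates did not deviate together (correlations of -0.0583 for HS578T, 0.0512 for MDA-MB-231).

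Members and lists were chosen with earlier results of these data known. Values in every library are given for up to 10 members per line with the largest called change at 5 CPM or more, up to 8 for the difference between lines and up to 10 for the controls at 20 CPM or more, for the most abundant member of each role, and up to 4 genes of each further list. Others were named after their values were seen. Alternatives were edgeR with the size factors of DESeq2, DESeq2 itself, no filter, a filter of 5 CPM in 2 libraries, the 4 libraries of a comparison alone, a replicate block, limma on log2(TPM + 1) and log2(TPM + 0.1), and each library left out. 3′ UTRs of at least 30 bases came from GENCODE 29 and covered 91.7% of tested genes. Software was R 4.3.3, edgeR 4.0.16, limma 3.58.1, DESeq2 1.42.0 and Python 3.11.15 with pandas 2.3.3. A marker gene and the sum of its list are not reported here.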

Additional observations from a re-analysis of the deposited data

Results flagged for a closer look

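For 10 members the log2 change after depletion differed between the lines (HS578T minus MDA-MB-231), by the interaction term of the quasi-likelihood test of edgeR, Benjamini-Hochberg adjusted. TNC differed by 1.59 ± 0.09 (SE; 1.14 in HS578T and -0.45 in MDA-MB-231) and MFAP2 by 0.997 ± 0.14 (0.22 and -0.78), and both moved in opposite directions. FBLN1 differed by 1.15 ± 0.25, with -0.01 in HS578T and -1.16 in MDA-MB-231, and the call was lost without MDA-MB-231 control replicate 2 or siGpx1 replicate 2. LOXL4 differed by -1.79 ± 0.49 (-1.05 and 0.73), a call that rests on 3 to 8 counts a library in HS578T and was lost without HS578T control replicate 1, control replicate 2 or siGpx1 replicate 2. LAMA3 differed by -0.47 ± 0.15 (0.03 and 0.50). It was not called with DESeq2, with either limma setting, or without HS578T control replicate 1, control replicate 2 or siGpx1 replicate 1. AGRN differed by 0.28 ± 0.06 (-0.14 and -0.42). Its call was lost with limma on log2(TPM + 0.1) and without MDA-MB-231 control replicate 2, siGpx1 replicate 1 or siGpx1 replicate 2. CCDC80 differed by 0.32 ± 0.08 (1.06 and 0.74) and THBS1 by 0.22 ± 0.06 (-0.16 and -0.38). LOXL2 differed by 0.20 ± 0.05 (0.19 and -0.02) and LAMA5 by 0.18 ± 0.05 (0.06 and -0.12). The calls of these last 4 were kept in 5 of 15 alternatives for CCDC80 and THBS1, 4 for LOXL2 and 3 for LAMA5, and leaving out any 1 of the 4 MDA-MB-231 libraries, HS578T control replicate 1 or HS578T control replicate 2 ended each of them. LAMA5 also lost its call without HS578T siGpx1 replicate 1. The highest adjusted p over the alternatives (edgeR, DESeq2 and limma) was 0.0836 for FBLN1, 0.123 for LOXL4, 0.141 for LAMA3, 0.175 for AGRN, 0.266 for CCDC80, 0.358 for THBS1, 0.500 for LOXL2 and 0.609 for LAMA5.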

How the results depend on the processing

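Of the calls of single members, 16 of 24 in HS578T, 14 of 19 in MDA-MB-231, 2 of 10 for the difference between the lines and 39 of 41 between the controls were kept in every one tried, and 0 called members changed sign. The 16 rises of HS578T became 9 with limma on log2(TPM + 1) and 8 with log2(TPM + 0.1). The 8 members with a higher change in HS578T became 5 with DESeq2 size factors in edgeR, 5 with DESeq2, 4 with the stricter filter and 5 with log2(TPM + 0.1). The 2 with a lower change became 4 with DESeq2 size factors, 5 with the stricter filter, 1 with log2(TPM + 1) and 1 with log2(TPM + 0.1). The cause was not tested. With 1 library left out, the lone sample of a group being assumed to vary like the others, rises in HS578T numbered 12 to 20 and falls 8 to 10, rises in MDA-MB-231 8 to 10 and falls 8 to 11. The difference between the lines then gave 2 to 9 higher and 0 to 6 lower, and the controls 33 higher and 7 to 9 lower. The replicate block gave 16 rises and 8 falls in HS578T cells, with 8 and 11 in MDA-MB-231, the same counts as without it. Among uncalled changes that are printed, LAMA3 in HS578T (0.03) was -0.021 with the stricter filter and -0.022 with the 4 HS578T libraries alone (-0.064 to 0.10 with 1 library left out), LOXL2 in MDA-MB-231 (-0.02) was 0.022 with DESeq2 size factors and with DESeq2 and 0.037 with the stricter filter (-0.011 to 0.061 with 1 left out), and FBLN1 in HS578T ranged from -0.078 to 0.047 with 1 left out. LOXL4 in HS578T (-1.05) was called lower in 2 of 15 alternatives, and LAMA5 in HS578T (0.06) was called higher in 1 of 16. Of the 73 other uncalled changes of members, 39 changed sign and 20 were called in at least 1 alternative. With 2 libraries a group and under 100 counts, as for FBLN1 and LAMA4 in MDA-MB-231, the precision is limited by depth.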
